A study of Mus musculus with 36 samples.

Results

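The giant scaffold proteins of the sarcomere and their partners were followed here through 9 genes: Ttn, Neb, Obsl1, Speg, Myom1, Myom2, Myom3, Mybpc1 and Mybpc2. They were chosen by gene symbol from a table of 46893 genes, and each of the 9 symbols matched 1 gene. The choice was made with earlier results of these data in view, and the measured values behind it are not recorded beyond the symbols. All 9 were expressed in every library and all 9 passed the limit on low counts in every comparison.

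A sarcomere is the contractile unit of striated muscle, in which thin actin filaments anchored at the Z-disc slide past thick myosin filaments held together at the M-band. Titin is a molecular spring that runs from Z-disc to M-band, and nebulin runs along the thin filament. Obsl1 and the myomesins crosslink the M-band and Speg ties the sarcomere to the membranes around it, while myosin binding proteins C sit on the thick filament in slow and fast forms.

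The RNA came from the gastrocnemius, a mixed but mostly fast calf muscle, of 36 male C57BL/6 mice that were 3 to 4 weeks old at the start and were kept for 12 weeks on their diet. There were 6 groups of 6 mice, with 1 library per mouse. NFD-C mice were sedentary and ate the AIN93G diet, and HFD-C mice were sedentary and ate a high-fat diet. The other 4 groups ate the high-fat diet and ran in wheels. HFD-U mice ran without a limit (8.3 km per day), and those of HFD-25%, HFD-50% and HFD-75% were held to 2.1, 4.2 and 6.3 km per day. The design asks whether the diet (NFD-C against HFD-C) or the running distance (each running group against HFD-C) went with a difference in transcript level.

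The libraries held 13060090 to 27981702 counted reads each, of which the 9 genes made up 1.78 to 3.19%. The summed level of 5 skeletal muscle markers was 29202 to 56710 CPM (counts scaled to the library size with TMM factors) over the 36 libraries, and that of 5 adipocyte markers was 0.46 to 74.1 CPM. The libraries fell into sets by how much of their count lay on features linked to ribosomal RNA. That share was 2.01 to 3.8% in 10 libraries (all 6 of NFD-C and replicates 1 to 4 of HFD-C) and 0.404 to 1.02% in the other 26 (replicates 5 and 6 of HFD-C and all 24 runners). No running library was in the high-share set and no NFD-C library was in the low-share set, so between NFD-C and the runners the library set and the group cannot be told apart, and fold changes against HFD-C are given with and without it where it moved them. In a whole muscle, fewer cells of a type and less RNA per cell cannot be told apart either.

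The genes lie on 7 chromosomes, with positions as deposited, which carry the sequence names of GRCm39. Ttn (chromosome 2, 76534324 to 76812901, minus strand) has a gene model of 117640 bases, the fifth longest in the table, and Neb lies on the same chromosome (52026652 to 52228810, minus strand) with 23717 bases. Speg (chromosome 1, 75351941 to 75408964, plus strand, 18106 bases) and Obsl1 (75462469 to 75483143, minus strand, 7371 bases) are neighbours, 53504 bases apart. The myomesin genes are Myom1 on chromosome 17 (71326455 to 71433851), Myom2 on chromosome 8 (15107653 to 15183420) and Myom3 on chromosome 4 (135486688 to 135542882), all on the plus strand. Mybpc1 lies on chromosome 10 (88354141 to 88441051) and Mybpc2 on chromosome 7 (44151123 to 44174093), both on the minus strand. Neb overlaps a noncoding gene (4930573O16Rik, mean count 2.47) and Mybpc2 overlaps Fam71e1 (mean count 375), each on the other strand. Whether the reads were counted by strand is not given in the sources used here, so reads of such partners could not be told apart.

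The bases upstream of the gene start of Speg are shown because it was the only one of the 9 genes called in a test over groups. Regions of Myom3, Mybpc1 and Mybpc2 are shown because their levels moved together or in opposite directions from mouse to mouse. The regions of these other genes lie before a listed transcript start that was not the gene start. RefSeq upstream regions (build GRCm38.p6) matched 7 of the 9 genes, with no entry for Neb and Myom2. Each run holds the 250 bases before a transcript start, 5′ to 3′ on the strand of the gene. Capitals mark runs of 10 bases that open with CTA and close with TAG, with 4 bases of any kind between them. This pattern resembles a MEF2 site but does not define it. A match need not be such a site, and a region without a match may still hold one. Matches of the 6 letters CANNTG, the E-box core, where N stands for any base, are also in capitals.
Speg chr1:75375047-75375296, plus strand: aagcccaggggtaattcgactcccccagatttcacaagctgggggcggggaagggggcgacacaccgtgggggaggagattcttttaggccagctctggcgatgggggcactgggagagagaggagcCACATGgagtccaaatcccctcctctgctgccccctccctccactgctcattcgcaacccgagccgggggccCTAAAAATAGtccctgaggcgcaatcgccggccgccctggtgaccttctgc
Myom3 chr4:135759465-135759714, plus strand: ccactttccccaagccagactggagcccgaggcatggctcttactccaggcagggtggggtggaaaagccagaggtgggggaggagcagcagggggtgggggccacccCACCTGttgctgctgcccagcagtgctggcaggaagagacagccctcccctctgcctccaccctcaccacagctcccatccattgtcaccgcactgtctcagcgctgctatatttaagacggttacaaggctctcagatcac
Mybpc1 chr10:88605153-88605402, minus strand: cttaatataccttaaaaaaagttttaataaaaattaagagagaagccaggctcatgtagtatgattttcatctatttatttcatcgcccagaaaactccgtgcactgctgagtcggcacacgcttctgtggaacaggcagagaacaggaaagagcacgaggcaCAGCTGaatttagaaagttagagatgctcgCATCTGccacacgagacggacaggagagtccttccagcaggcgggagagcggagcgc
Mybpc2 chr7:44524670-44524919, minus strand: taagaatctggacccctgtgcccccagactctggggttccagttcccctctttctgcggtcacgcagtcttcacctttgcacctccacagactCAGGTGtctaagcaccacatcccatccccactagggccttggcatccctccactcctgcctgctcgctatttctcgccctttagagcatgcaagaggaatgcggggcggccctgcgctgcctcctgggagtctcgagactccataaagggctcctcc
Of 4 regions listed for Speg, the 1 shown held CTAAAAATAG, which begins 51 bases before the start, and the other 3 had no match of this motif. The regions of Ttn and Obsl1 also had a match, so 3 of the 10 regions listed for the 9 genes held it, against 3.2% of all 32851 regions of the same length. CANNTG was found in 10 of 10 and in 66.2% of all, and TATAAA in 0 of 10 and in 12.4% of all. Both strands were searched, and the 2 marked motifs did not overlap in the regions shown. A match is a description of letters and not of binding.

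Compared per length, in FPKM (here CPM per kilobase of the gene model), Mybpc2, the fast form of myosin binding protein C, was the highest of the 9 with 1229 ± 275 (SD, n = 36). Its level was above that of Mybpc1, the slow form (278 ± 194), in 36 of 36 mice. Mybpc1 and Myom1, a myomesin of the M-band (237 ± 33.9), were in this order in only 19 of 36 mice, and Neb (199 ± 47.5) and Myom2 (191 ± 39.2) in 16 of 36, so neither pair was separated. Ttn followed with 91 ± 14.5 FPKM and Speg with 26.3 ± 3.77, each below the one before it in 36 of 36 mice. Myom3 (8.98 ± 6.66) and Obsl1 (6.66 ± 1) came last, with Myom3 the higher in 20 of 36. The gene models of the 9 span 3624 to 117640 bases. Neither RNA quality nor evenness of coverage along the longest transcripts was examined, so the order between long and short genes carries that limit.

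How far a level varied differed greatly between the genes. Myom3 covered an 82.6-fold range of CPM over the 36 mice and Mybpc1 a 28.1-fold range, whereas the other 7 covered 1.68-fold (Speg) to 2.6-fold (Mybpc2) ranges. Of the summed FPKM of Mybpc1 and Mybpc2, the slow form made up 9.34% ± 7.53 (SD, n = 6) in NFD-C, 24.6% ± 14.5 in HFD-C and, on average, 18.6%, 21.8%, 17.4% and 20.2% in the running groups in order of distance. Single mice ranged from 1.87% to 46.4%.

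**Figure D1:**
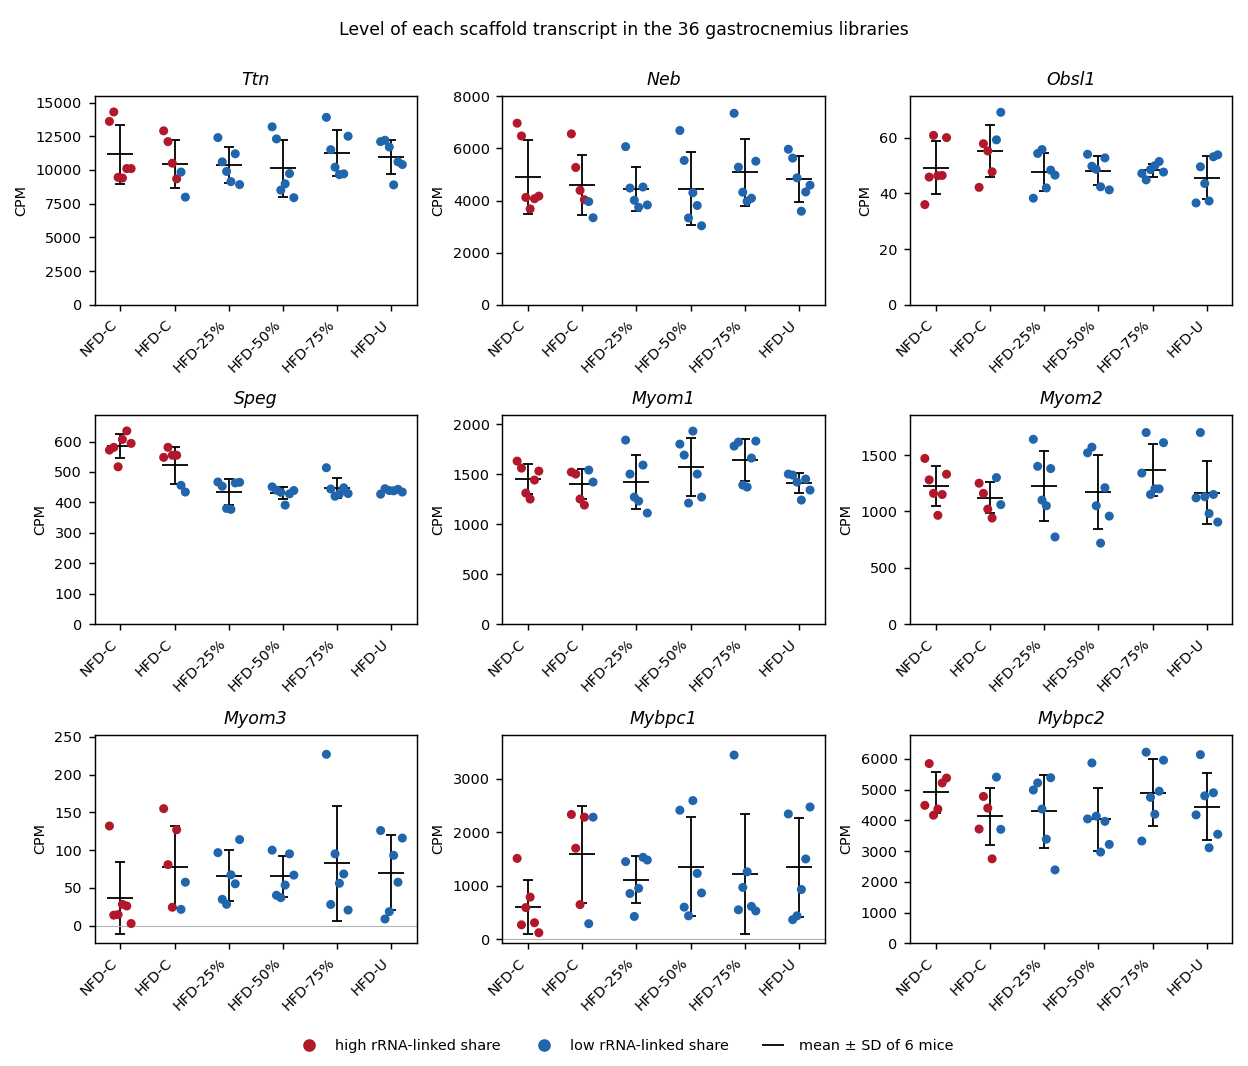
Level (CPM, vertical axis from 0 or below) of each of the 9 genes in 6 mice per group, with points coloured by the rRNA-linked share of the library and the mean ± SD in black. Speg sits at 517 to 635 in NFD-C and at 377 to 514 in the 24 runners, while Myom3 and Mybpc1 spread widely within every group.

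The titin and nebulin transcripts did not pass the test in any comparison. Ttn was at 7981, 10181 and 12851 CPM (lowest, median and highest of 6 mice) in HFD-C and at 9396, 10105 and 14306 in NFD-C. In the running groups the medians were 10238, 9353, 10858 and 11147 CPM with rising distance, and single mice ranged from 7941 to 13944. Each group overlapped all others. Against HFD-C, the log2 fold change of Ttn was 0.10 in NFD-C and −0.01, −0.05, 0.11 and 0.07 in the running groups with rising distance, and the 95% intervals reached from −0.43 to 0.46 at most. In the low-share libraries, with 2 HFD-C mice, the values of Ttn in the running groups were 0.23, 0.19, 0.34 and 0.30 (adjusted p = 0.55 to 0.845, edgeR), which turned the direction for the 2 shorter distances. In the high-share libraries NFD-C gave 0.00.

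Neb, the ruler-like partner of the thin filament, had medians of 4145 CPM in NFD-C, 4211 in HFD-C and 4244, 4053, 4801 and 4730 in the 4 running groups, in order of distance. Its lowest mouse was at 3028 CPM (HFD-50%) and its highest at 7348 (HFD-75%). The log2 fold changes against HFD-C were 0.11 in NFD-C and −0.05, −0.04, 0.15 and 0.07 in the runners by distance, with intervals between −0.51 and 0.56. In the low-share libraries the values of Neb in the runners were 0.29, 0.29, 0.48 and 0.40 (adjusted p = 0.47 to 0.789, edgeR), again with the direction turned for the 2 shorter distances, and NFD-C gave −0.04 in the high-share libraries. With all libraries, a change of 2-fold in either direction lay outside the interval of both genes in all 5 comparisons. In the low-share libraries this held for Ttn in all 4 running groups and for Neb in 3 of 4, and the interval of Neb in HFD-75% reached 1.04.

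Speg is a kinase of striated muscle that helps maintain the membrane junctions of the calcium store. Over the 6 groups 1.45% of all 12053 genes tested were called (edgeR quasi-likelihood test with Benjamini-Hochberg adjustment). Speg was the 1 gene of the 9 among them (adjusted p = 0.00311, same edgeR test). In NFD-C its level was 517, 587 and 635 CPM (lowest, median, highest), a mean of 584 ± 39.6 (SD, n = 6). HFD-C mice had 434, 551 and 581 CPM, with a mean of 521 ± 60.7. The means were 435 ± 43.4, 430 ± 20.8, 447 ± 34.3 and 438 ± 6.47 in the 4 running groups, from the shortest distance to the longest. All 24 runners, at 377 to 514 CPM, were below all 6 NFD-C mice, while runners and HFD-C overlapped.

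The overlap came from the 2 HFD-C mice in low-share libraries, which had 434 and 456 CPM, within the range of the runners. The other 4 HFD-C mice had 548 to 581 CPM, above every runner and within the range of NFD-C. With the library set as a term in the fit the adjusted p of Speg over the 6 groups was 0.971, and within the low-share libraries alone, which hold no NFD-C mouse and 2 HFD-C mice, it was 0.989. The number of all genes called over the 6 groups was 4 with this term and 175 without. Against HFD-C, the log2 fold change of Speg was −0.26, −0.27, −0.22 and −0.25 with rising distance (adjusted p = 0.435 to 0.941 by edgeR), and 0.17 in NFD-C (adjusted p = 1). All 24 runners together gave −0.25 (SE 0.0658, adjusted p = 0.099 by edgeR, 0.0443 by edgeR with the mouse number as a block and 0.0052 by DESeq2), against −0.02 (adjusted p = 0.946) in the low-share libraries. There the 4 running groups gave −0.04 to 0.01, and NFD-C gave 0.06 in the high-share libraries. The part of the library set in the Speg difference was not tested beyond these fits.

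Obsl1, which links titin and the myomesins at the M-band, was the least abundant of the 9 per length. The range was 42.2 to 69.2 CPM in HFD-C, 36 to 60.9 in NFD-C and 36.6 to 55.8 in the 24 runners, with a median of 56.6 in HFD-C and 46.5 to 49.2 in the other groups. The log2 fold change of all runners against HFD-C was −0.22 (SE 0.0879, unadjusted p = 0.0167, adjusted p = 0.397, edgeR). Without the high-share libraries it was −0.43 (adjusted p = 0.139), in a comparison with 2 HFD-C mice. These had 59.3 and 69.2 CPM, above every runner, where the Speg values of the same mice lay among the runners. None of these values passed the adjusted threshold.

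**Figure D2:**
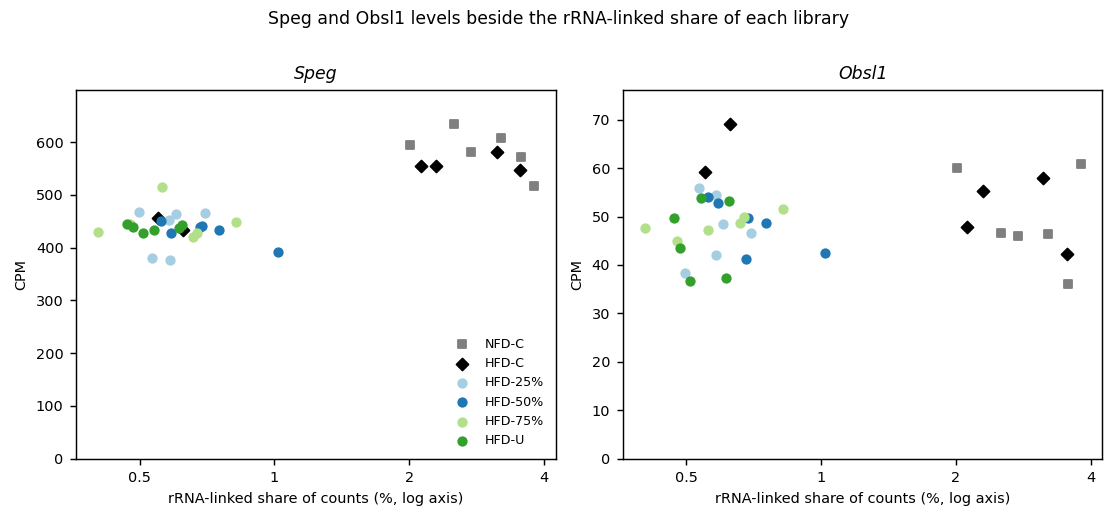
Level (CPM, from 0) of Speg on the left and Obsl1 on the right against the rRNA-linked share of the library (%, log axis), with 1 point per mouse and a colour and shape per group. For Speg the 2 HFD-C mice at a share below 1.43% lie among the runners and the other 4 near NFD-C, while for Obsl1 the same 2 mice (59.3 and 69.2 CPM) lie above every runner.

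The myomesins differed from each other in how even they were. Myom1 group medians lay between 1386 CPM (HFD-25%) and 1720 (HFD-75%), and its log2 fold change against HFD-C was between 0.01 and 0.23. Myom2, the form of adult fast fibres, was at 941, 1106 and 1296 CPM (lowest, median, highest) in HFD-C and 1149, 1274 and 1703 in HFD-75%, which overlapped. The log2 fold change of Myom2 in HFD-75% was 0.29 (95% interval 0.01 to 0.58, unadjusted p = 0.0462, adjusted p = 0.892, edgeR). Against HFD-C in the other groups it was 0.06 to 0.13. In the low-share libraries the running groups gave −0.07 to 0.15 for Myom1 and −0.02 to 0.22 for Myom2, and no adjusted p was below 0.72 (edgeR).

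Myom3, the myomesin of intermediate fibres, had the lowest level of a single mouse. It was at 2.75, 20.3 and 132 CPM (lowest, median, highest) in NFD-C and at 21.5, 69.1 and 155 in HFD-C. In the running groups the medians were 61.3, 60.3, 62.3 and 75.3 CPM and the range was 8.75 to 227. The 2 sedentary groups overlapped, although 5 of the 6 NFD-C mice lay at 28.2 CPM or lower. The log2 fold change of NFD-C against HFD-C was −1.09 (95% interval −2.53 to 0.36, adjusted p = 1, edgeR), an interval that included 0. Without mouse 1 of NFD-C, the one at 132 CPM, it was −2.18 (adjusted p = 0.431, edgeR), and leaving out other mice in turn gave −1.29 to −0.77. In the high-share libraries it was −1.41 (interval −2.97 to 0.15), and with the rRNA-linked share in the fit it was −1.77 (interval −3.32 to −0.21, adjusted p = 0.704, edgeR). In the running groups the log2 fold changes of Myom3 were −0.24, −0.24, 0.10 and −0.15 with rising distance, and in the low-share libraries they were 0.76, 0.75, 1.08 and 0.83 (adjusted p = 0.601 to 0.704, edgeR), with the direction turned in 3 of 4. All 8 intervals included 0.

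Mybpc1, the slow form of myosin binding protein C, gave the lowest point estimate of the 9. The lowest, median and highest of 6 mice were 122, 451 and 1507 CPM in NFD-C and 291, 1989 and 2325 in HFD-C. The log2 fold change was −1.40 (SE 0.551, 95% interval −2.57 to −0.23, unadjusted p = 0.0222, adjusted p = 1, edgeR). The running groups had medians of 1201, 1046, 791 and 1214 CPM in order of distance, with single mice from 366 to 3440. Their log2 fold changes against HFD-C were −0.51, −0.21, −0.36 and −0.24, each with an interval that included 0. In the low-share libraries they were −0.19, 0.10, −0.05 and 0.07 (adjusted p = 0.926 to 0.988, edgeR), and NFD-C gave −1.54 (adjusted p = 0.952, edgeR) in the high-share libraries.

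Mybpc2, the fast form, did not pass the test in any comparison. Its medians were 4859 CPM in NFD-C, 4061 in HFD-C and 4681, 4009, 4852 and 4492 in the running groups, and all groups overlapped. The log2 fold change against HFD-C was between −0.03 (HFD-50%) and 0.26 (NFD-C), and its 95% intervals lay between −0.46 and 0.65. In the low-share libraries the running groups gave −0.17 to 0.10, and NFD-C gave 0.33 in the high-share libraries.

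Against HFD-C, none of the 9 genes passed an adjusted p of 0.05 in edgeR in any of the 5 groups. The share of all genes called was 0.0082% in HFD-25% and 0% in NFD-C and the 3 groups with longer distances. The count was also 0 of 9 in each with DESeq2. With p unadjusted, 1 of 9 passed 0.05 in each of the 5 comparisons, where 4.12%, 6.98%, 10.7%, 5.47% and 5.46% of all genes did. These were Mybpc1 in NFD-C, Myom2 in HFD-75%, and Speg in the other 3 running groups. The 5 comparisons share the HFD-C mice. The median log2 fold change of the 9 was 0.10, −0.05, −0.05, 0.11 and 0.01, beside medians over all genes between −0.01 and 0.01. With all libraries, the 95% interval lay within 1 log2 unit of 0 for 7 of the 9 genes in each of the 5 comparisons, and the exceptions were Myom3 and Mybpc1.

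**Figure D3:**
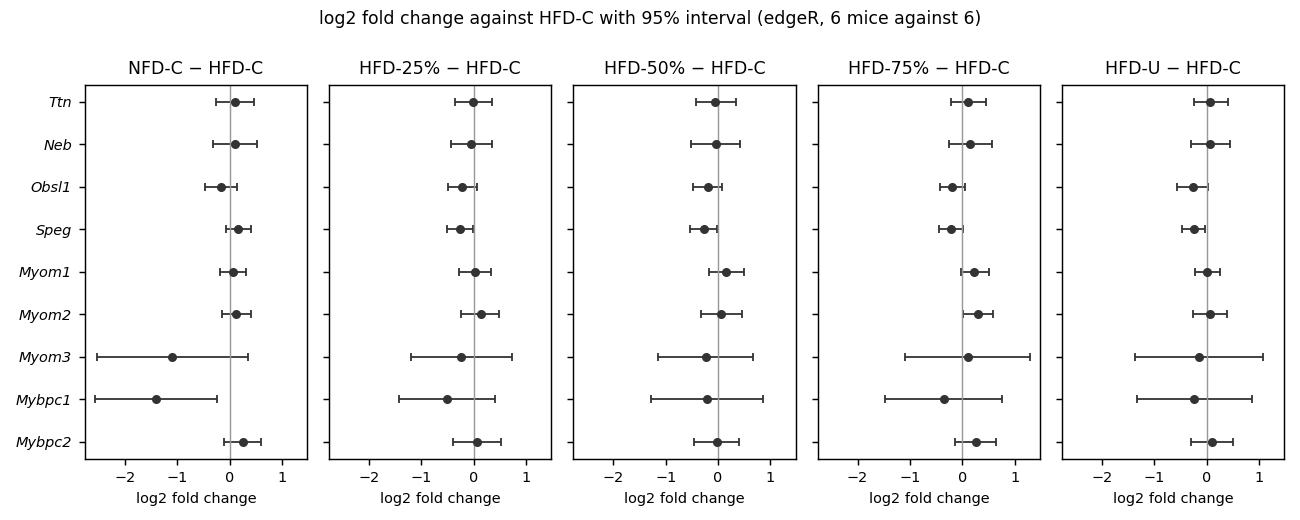
log2 fold change of each gene (horizontal axis, with its 95% interval) in 5 groups against HFD-C, 6 mice against 6. The intervals of Myom3 and Mybpc1 are the widest in each panel, and Mybpc1 in NFD-C stands at −1.40.

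The distances did not separate the genes either. Between running groups, 0 of 9 passed the adjusted threshold in all 6 pairs, by edgeR and by DESeq2, and the share of all genes called was 0.00844% for HFD-50% against HFD-U and 0% for the other 5. Before adjustment, 0 of 9 passed 0.05 in these 6 pairs. The share of all genes that did was 5.1%, 12.4% and 5.57% for the 3 shorter distances against HFD-U, 2.69% and 5.37% for HFD-50% against the distances on either side of it, and 3.12% for HFD-25% against HFD-75%. For the 24 runners together against HFD-C 0 of 9 were called by edgeR, with 0.3% of all genes called, and 1 (Speg) by DESeq2 and by edgeR with the mouse number as a block. A trend over distance (linear and quadratic terms) called 0 of 9 with HFD-C as the zero distance, where 0.683% of all genes were called, and 0 of 9 over the runners alone, where 0.0419% were. DESeq2 also called 0 of 9 in both trends. Without adjustment 1 of 9 (Speg) passed 0.05 over the 6 groups and in the trend with HFD-C (12.2% of all genes in both), and 0 of 9 in the trend over runners (8.49%). The lowest adjusted p of the trend with HFD-C was that of Speg (0.217), which in the runners alone was 0.985.

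Proteins that bind the scaffolds were read from lists. Of 20 Z-disc genes 19 were tested, and 0 passed the adjusted p in any comparison with edgeR. Flnc (filamin C) and Myoz3 (a calsarcin) had the smallest p in all runners against HFD-C, with log2 fold changes of −0.48 and −0.35 (adjusted p = 0.454 and 0.609), and the list median was −0.06. Of 14 M-band and titin partners 0 passed in any comparison. Capn3, a protease anchored on titin, and Trim63, a ubiquitin ligase of the M-band, had the smallest p in all runners, with log2 fold changes of −0.15 and 0.68 (adjusted p = 0.502 and 0.601), and the list median was 0.07. By distance, the log2 fold change of Trim63 was 0.25, 1.13, 1.07 and −0.07, with unadjusted p of 0.0113 in HFD-50% and 0.00578 in HFD-75% (adjusted p = 0.318 and 0.576, edgeR). Of the 11 thin filament partners of nebulin 0 passed. Xirp1, an actin-binding protein of muscle attachment sites, and Klhl31, a kelch-like protein of muscle, had the smallest p of that list in all runners, with −0.91 and −0.24 (adjusted p = 0.145 and 0.576), and the list median was −0.14. Mybph was the 1 of 3 other myosin binding proteins abundant enough to be tested, and it did not pass. In all runners an unadjusted p under 0.05 was reached by 1 of 19, 1 of 14, 1 of 11 and 0 of 1 genes of these lists, beside 2 of the 9 scaffold genes (Speg and Obsl1) and 9.27% of all genes. In single groups against HFD-C, the largest such count was 4 of the 14 M-band and titin partners in HFD-50% (1 higher and 3 lower), where 10.7% of all genes did, and in the other groups 0 to 2 of any of these lists did.

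Within groups, several of the genes varied together, in sets that overlapped. After the group means were removed from the log2 CPM, Ttn and Neb gave Pearson's r of 0.96 (Spearman's rho 0.96, permutation p = 1e-05 for both, adjusted p = 8.1e-05, n = 36), and r was 0.96 without the 2 mice farthest from the median of Neb. The relation was 0.97 in the 10 high-share libraries and 0.96 in the other 26. All such p-values come from permutations within groups, are adjusted over 81 relations, and 1e-05 is the smallest that 100000 permutations can give. The values of a pair come from the same library and share its scaling. The permutations also treat the mice of different groups as independent. Several levels went with the mouse number (below), so these p-values may be too small. Myom1 followed Ttn with r of 0.68 (rho 0.74, adjusted p = 0.000249 and 0.000135, permutation) and Neb with 0.71 (rho 0.77, adjusted p = 8.1e-05 for both, permutation), and without the 2 farthest mice r was 0.66 and 0.70. Within the high-share and low-share sets, Myom1 gave 0.84 and 0.75 with Ttn. Myom2 gave r of 0.68 with Ttn, 0.60 with Neb and 0.60 with Myom1 (adjusted permutation p = 0.000221, 0.00153 and 0.00451). With Mybpc2, r was 0.44 for Ttn, 0.49 for Myom1 and 0.28 for Neb (adjusted permutation p = 0.0293, 0.0254 and 0.197).

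A second set, which shared Myom2 with the first, followed the myosin heavy chains, each of which marks a fibre type. Myom3 gave r of 0.97 (rho 0.96) with Myh2, the myosin of type 2A fibres, and Mybpc1 gave 0.94 (rho 0.92) with Myh1, that of type 2X. Mybpc2 gave 0.98 (rho 0.99) with Myh4, that of type 2B, and Myom2 gave 0.75 (rho 0.73) with Myh4. The adjusted permutation p of these 4 relations was 8.1e-05 for r and for rho. Without the 2 farthest mice r was 0.95, 0.93, 0.98 and 0.75. Within the high-share and low-share libraries it was 0.98 and 0.95, 0.93 and 0.95, 0.98 and 0.98, and 0.39 and 0.80. The last was thus weaker in the 10 high-share libraries. Myom3 also gave 0.84 with Myh1, and Mybpc1 gave 0.82 with Myh2 (rho 0.82 and 0.79, adjusted permutation p = 8.1e-05 for each). Neither gene was therefore particular to 1 of these 2 myosins.

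Myom3 and Mybpc1 varied together from mouse to mouse (r = 0.85, rho 0.83, adjusted permutation p = 8.1e-05 for both, 0.82 without the 2 farthest mice, 0.92 and 0.81 within the sets). Both ran against Mybpc2, with r of −0.59 for Myom3 (rho −0.62, adjusted permutation p = 0.000594 and 0.00114) and −0.57 for Mybpc1 (rho −0.59, adjusted permutation p = 0.00179 and 0.0019). Without the 2 farthest mice these were −0.57 and −0.58, and within the high-share and low-share sets −0.44 and −0.67 for Myom3 and −0.59 and −0.56 for Mybpc1. With a list of 8 slow fibre genes, Myom3 gave 0.64 (rho 0.61, adjusted permutation p = 0.000759 and 0.00153, 0.57 without the 2 farthest, 0.89 and 0.48 within the sets). Mybpc1, although named the slow form, gave 0.36 (rho 0.30, adjusted permutation p = 0.119 and 0.187, 0.27 without the 2 farthest), with 0.77 in the high-share and 0.15 in the low-share libraries.

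**Figure D4:**
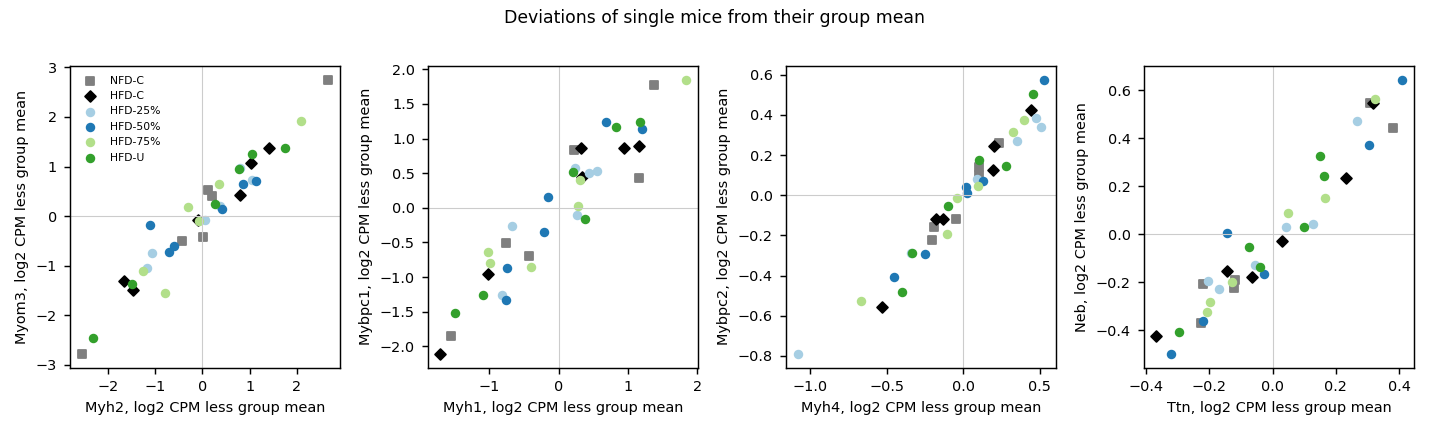
Deviation of each mouse from its group mean (log2 CPM on both axes, 1 point per mouse) for Myom3 and Myh2, Mybpc1 and Myh1, Mybpc2 and Myh4, and Neb and Ttn, from left to right. The points of all 6 groups fall along 1 line in each panel, with r of 0.97, 0.94, 0.98 and 0.96.

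The fibre markers are given here beside the Mybpc1 and Myom3 values of NFD-C. Myh2 was at 104, 636 and 3832 CPM (lowest, median, highest) in NFD-C and 588, 2497 and 4970 in HFD-C. Myh1 was at 520, 1456 and 3955 CPM in NFD-C and 879, 3606 and 6413 in HFD-C, and the sum of the 8 slow fibre genes was 52, 144 and 2136 CPM in NFD-C and 152, 1266 and 2647 in HFD-C. Myh7, the slow myosin, was at 0 in at least 1 NFD-C library. None of the 8 slow fibre genes, Myh1 or Myh2 passed the adjusted p between NFD-C and HFD-C (edgeR), 0 of them had an unadjusted p under 0.05, and the list median was −1.35 on the log2 scale. In HFD-50%, 7 of the 8 slow fibre genes were higher than in HFD-U, and 4 than in HFD-75% (unadjusted p under 0.05, edgeR). Such a p was reached by 12.4% and 5.37% of all genes, and by 0 of 8 in the other pairs of running groups. None of the 8 passed the adjusted p there. The log2 fold changes in these 2 comparisons were −0.09 and −0.34 for Myom3 and 0.02 and 0.15 for Mybpc1. The part of fibre composition in the Mybpc1 and Myom3 values was not tested.

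The genes most like each of the 9 over the 36 libraries were sought among 12044 others, by Pearson's r of log2 CPM less the group mean, as a description. Dyrk1a, a protein kinase, was the closest to both Ttn (0.94) and Neb (0.96), followed by the ubiquitin pathway genes Usp25 and Wwp1 for Ttn (0.94 each) and Usp15 and Ube3a for Neb (0.96 and 0.95). Those 5 have gene models of 5038 to 16513 bases, far shorter than Ttn. Myom1 was closest to Nomo1 (0.90), the Z-disc gene Mypn (0.89) and Bag6 (0.89). Myom2 was closest to Phka1, a subunit of phosphorylase kinase (0.92), Prkab2, a subunit of AMPK (0.91), and Gpc1 (0.90). Myom3 was closest to Myh2 (0.97), Smtnl1 (0.96) and the calsarcin Myoz2 (0.95), and Mybpc1 to the actin nucleator Lmod2 (0.95), Myh1 (0.94) and Fhl1 (0.93). Mybpc2 was closest to Myh4 (0.98), Pygm, muscle glycogen phosphorylase (0.95), and Sort1 (0.92). Speg and Obsl1 had no comparably close gene, with the highest r at 0.70 for Speg (Ahdc1 and Nfix, then Extl1 at 0.69) and 0.63 for Obsl1 (Rnaseh1 and Ten1, then Zc3h3 at 0.61).

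Transcript length was checked because Ttn and Neb are among the longest models in the table. The mean deviation of the 200 longest other tested genes (20535 to 114472 bases) gave r of 0.36 with Ttn (rho 0.26, adjusted permutation p = 0.119 and 0.253) and 0.42 with Neb (rho 0.37, adjusted permutation p = 0.045 and 0.0928). Without the 2 mice farthest from the median r was lower for both genes, at 0.15 and 0.26, and these lower values were not tested. Within the high-share and low-share sets the values were 0.21 and 0.24 for Ttn and 0.37 and 0.31 for Neb.

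The level of several genes also went with the number that a mouse bears in the labels. Mouse 1 had the highest Neb of its group in 6 of 6 groups (5968 to 7348 CPM, on average 0.52 log2 units above the group mean), a pattern found in 4.26% of the 12053 genes tested (514). For Ttn, mouse 1 was highest in 4 and among the top 2 in 6 of 6 groups (12090 to 13944 CPM). Mouse 1 was also among the top 2 for Myom3 in 6 of 6 groups (1.47 log2 units above the mean) and above the mean for Mybpc1 in 6 of 6 (1.22 log2 units). Mouse 2 was among the top 2 for Mybpc2 in 6 of 6 groups. The share over all genes was computed only for the pattern given for Neb, so how common the other patterns are is not known. The labels do not say what the number stands for, and its part in the relations between genes was not tested.

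**Figure D5:**
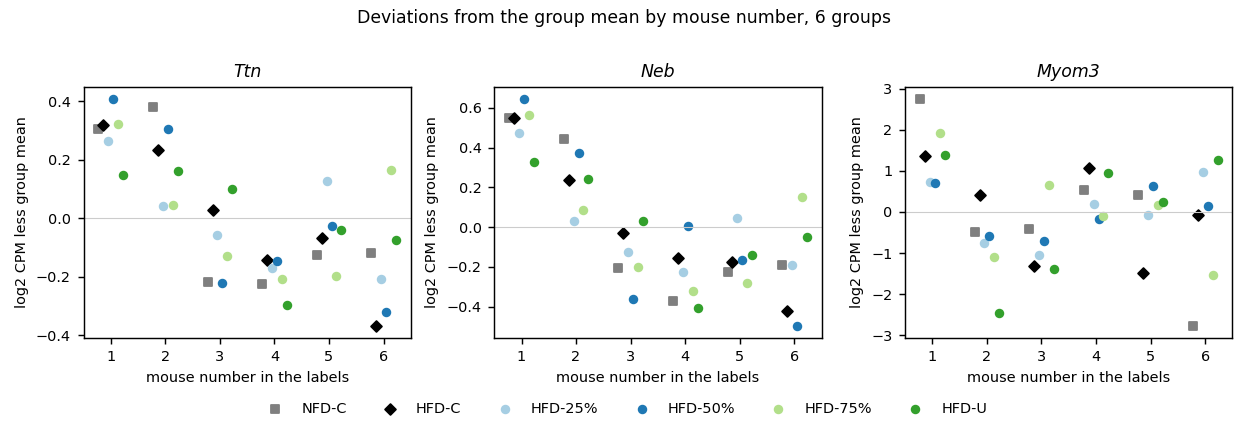
Deviation from the group mean (log2 CPM, vertical axis) of Ttn, Neb and Myom3 by the mouse number in the labels (horizontal axis), with 1 point per mouse coloured by group. Number 1 lies above 0 in all 6 groups for each of the 3 genes.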

How the data were processed

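The authors sequenced gastrocnemius RNA as paired ends after poly(A) selection, and the deposited values are whole counts of reads per gene, with no normalization. The submitters' processing notes name HISAT2 2.0.5, StringTie 1.3.3b, featureCounts 1.5.0-p3, DESeq2 1.20.0 and edgeR 3.22.5, and the build mm10, while the sequence names in the table are those of GRCm39. Of 44762 gene IDs shared with a GRCm38.p6 table, 1067 had the same start. Samples were grouped by their labels.

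Tests were run with edgeR 4.0.16 (R 4.3.3). A gene entered a fit when its count averaged 25 or more there, TMM factors were used, and two-sided quasi-likelihood p-values were adjusted over all genes entered (Benjamini-Hochberg, threshold 0.05). Pairs of groups were fitted alone. The 6-group test, the trend over distance and all runners against HFD-C used all their libraries. FPKM is CPM divided by the deposited gene length in kilobases. Alternatives were DESeq2 1.42.0, RLE factors, no minimum count, a replicate block, the rRNA-linked share or library set as a term, subsets of libraries, 1 fit over all 36 libraries, and leaving out each mouse. The terms for the library set, the 6-group test without NFD-C or with low-share libraries, and the index of long genes were chosen after the data were seen. Scripts were tested on simulated data.

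All 9 genes are named. Of each other list, genes past the adjusted p are named, or the 2 with the smallest p, and for likeness the 3 closest genes. The genes and lists were chosen with earlier results of these data known. A gene of the M-band and titin list is not reported here. Of the lists, rRNA-linked features had 5 of 8 names in the table and gave 3 calls over the 6 groups (LOC118568312, AY036118 and Lars2), and those for fast 2B fibre, blood, Schwann cell, endothelial cell, macrophage, fibroblast and smooth muscle, like the adipocyte and skeletal muscle lists, gave 0 in each comparison against HFD-C. Same-numbered mice of HFD-U and HFD-C deviated together over all genes (r = 0.125 to 0.51 in 6 of 6 pairs), so the numbers were taken to pair these groups. There the block left the count of the 9 genes at 0, while the calls over all genes went from 0 to 11. The values printed for this pair of groups come from the fit without the block. In the other 10 pairs of groups 1 to 5 of 6 were over 0.1. Replicates are separate mice, and p-values of the fits measure the spread between them. The permutation p-values rest on shuffling mice within each group and leave the mouse number out.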

Additional observations from a re-analysis of the deposited data

Results flagged for a closer look

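A mouse stood apart from the rest of its group, by Dixon's test on CPM without logs, in 6 of 54 sets of 6 mice (9 genes in 6 groups). Chance gives about 1 in 20 only for normally spread values and independent sets. CPM was not put on a log scale here and the 9 genes share the same mice, so the 6 cannot be set against that rate. In HFD-25%, mouse 1 had 6074 CPM of Neb, with the next at 4520. In HFD-75%, mouse 1 had 514 CPM of Speg (next 448), 227 CPM of Myom3 (next 95.1) and 3440 CPM of Mybpc1 (next 1264). In NFD-C, mouse 1 had 132 CPM of Myom3 (next 28.2). In HFD-U, mouse 2 had 1700 CPM of Myom2 (next 1150). Each of these was the highest of its group, and 5 of the 6 were mice numbered 1.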

How the results depend on the processing

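The 6-group call of Speg, the only one of the 9 genes called, was lost (0 of 9) with the library set as a term (adjusted p = 0.971), in the low-share libraries only (0.989), with the rRNA-linked share in the fit (0.802), without NFD-C (0.402) and with no minimum count (0.0643, 29344 genes tested). It was kept with DESeq2, RLE factors, the replicate block and without each mouse in turn (1 of 9 in each). Over all genes, the 6-group test called 175 and 445 with DESeq2, 527 with the block, 30 with the rRNA-linked share in the fit, 11 in the low-share libraries and 4 with the library set in it. In all runners against HFD-C, the count was 1 of 9 (Speg) with DESeq2 (adjusted p = 0.0052) and with the replicate block (0.0443), and 0 to 1 without each mouse in turn, 1 without HFD-C mouse 6 (log2 fold change −0.30, adjusted p = 0.0386), which is in the low-share set. There the block moved the count over all genes from 36 to 81. Every other count of the 9 genes was 0 under every alternative run. In the 11 pairs of groups, 2 to 9 of 12 libraries correlated best with their own number. No fold change of the 9 genes passed the threshold in the main edgeR fits (without a block or added term). A sign change of a called value was therefore not possible there. Of the fold changes of the 9 genes, 76 of 216 changed sign with the library set or rRNA-linked share taken into account (at most 0.36 in size with all libraries, none called), 132 of 1458 without 1 mouse and 15 of 648 under the other alternatives (up to 0.34 in both). A term for, or a subset by, library set or rRNA-linked share moved Ttn, Neb, Speg, Obsl1, Myom2 or Myom3 by more than 1 SD between mice in 38 values, for Speg in HFD-25% from −0.26 to −0.02 in the low-share libraries, for Neb in HFD-U from 0.07 to 0.40 and for Myom3 in HFD-50% from −0.24 to 0.75. The cause of these shifts was not tested. Low-share fits against HFD-C have 2 HFD-C mice, and against HFD-C with 6 mice a group the intervals of Mybpc1 and Myom3 reached beyond 1 log2 unit.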
